A study of Macaca mulatta with 24 samples.

Results

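Hematopoietic stem and progenitor genes were followed in the whole blood of adult rhesus macaques (Macaca mulatta) before and after a single total body dose of 4 Gy. The genes were CD34, KIT, FLT3, MYB, MEIS1, HOXA9, RUNX1, ERG, PROM1 and SPINK2, and their members on the array were all non-control probes that carry one of these 10 symbols as gene name in the scanner output. This gave 16 probes of 43603 for 8 genes of the 16551 symbols with a probe, since no probe was named HOXA9 or SPINK2. Of the 16 probes, 10 were bright enough to be tested, for KIT, FLT3, MYB, MEIS1, RUNX1 and ERG, and 6 were too dim, among them every probe of CD34 and PROM1.

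RNA from PAXgene blood tubes was depleted of globin transcripts and hybridized to 24 one-colour rhesus arrays. There were 7 pre-irradiation arrays (4 males and 3 females, 0 Gy), 4 at day 3 (3 males and 1 female), 6 at day 5 (4 males and 2 females) and 7 at day 7 (4 males and 3 females), and the replicate number marked the animal. The labels tell the irradiated groups from the pre-irradiation group by dose and day, and the groups also differed in which animals they hold and, for days 3 and 5, in scan session. The sample labels call the radiation X-rays and place the pre-irradiation blood at day 0, whereas the study's methods name a cobalt gamma source and an earlier bleed. All values below are log2 of the processed signal, an intensity, shifted so that the arrays share a common median. Probes entered the test if the scanner software rated them above background (its well-above-background flag) on 4 or more of the 24 arrays, which left 27138 probes, or 27132 where day 3 was compared. A probe was called changed at an adjusted p under 0.005 with limma, a linear model fitted to all of these.

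On the pre-irradiation arrays 49.6% to 53.1% of probes passed the well-above-background flag, against 53.9% to 57.6% on the day 3 arrays, 51% to 61.2% on those of day 5 and 48.3% to 60.9% on those of day 7. Every day 3 array lay above every pre-irradiation array in this respect. Its part in the day 3 results was not tested. The arrays were scanned in 2 sessions, with 6 pre-irradiation and 6 day 7 arrays in session 1 and 1 pre-irradiation array (animal 5), all 4 day 3 arrays, all 6 day 5 arrays and 1 day 7 array in session 2. Day 7 could therefore be compared with pre-irradiation within session 1, while days 3 and 5 could be compared within session 2 against animal 5 alone, and scan session can hardly be told apart from day in these.

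Hematopoietic stem and progenitor cells live mainly in the bone marrow, and few of them circulate in blood. CD34 and PROM1 are surface proteins used to isolate them, KIT and FLT3 are receptor tyrosine kinases for stem cell factor and FLT3 ligand, and MYB, MEIS1, HOXA9, RUNX1 and ERG are transcription factors that hold or open progenitor programs. Several are also used by mature blood cells: KIT by mast cells, FLT3 by dendritic cells, MEIS1 by the megakaryocyte line, and RUNX1 by most white cells and platelets. SPINK2 encodes a small protease inhibitor found in early progenitors. In whole blood, fewer cells of a type and less RNA per cell cannot be told apart.

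The probes are 60-base oligos, and the sequence decides which transcript each one reads. The 4 below were chosen because they lie in coding sequence: the RUNX1 probe that gave the only call against pre-irradiation blood, the FLT3 probe, and the CD34 and KIT probes that were not well above background on most arrays. They are written 5′ to 3′ as the scanner output holds them, and the capitals mark the stop codon that ends the CD34 probe.
RUNX1: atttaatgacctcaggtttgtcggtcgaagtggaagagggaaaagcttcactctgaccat
FLT3: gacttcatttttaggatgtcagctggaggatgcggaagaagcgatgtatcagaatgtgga
KIT: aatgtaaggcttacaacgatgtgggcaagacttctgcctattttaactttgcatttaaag
CD34: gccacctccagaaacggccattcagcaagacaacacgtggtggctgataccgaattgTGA

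The scanner output places them, on the build its header names as rheMac2, at chr3:11692461-11713433 (RUNX1, plus strand), chr17:7656142-7658949 (FLT3, minus strand), chr5:74670660-74670719 (KIT, minus strand) and chr1:162490666-162490725 (CD34, plus strand). These positions were not checked against a genome here. The RUNX1 probe spans 20973 bases and the FLT3 probe 2808 bases of genome, so both cross at least 1 intron, and a probe of 60 bases on that span reads spliced RNA. The RUNX1 stretch encodes part of the Runt domain, the part of the protein that binds DNA.

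RUNX1 was higher after irradiation by one of its 4 probes, on each of the 3 days. It was the only member called against pre-irradiation: 1 of the 10 tested member probes at day 3, 1 at day 5 and 1 at day 7. Of all tested probes, 13.5%, 16.7% and 10.9% were called on days 3, 5 and 7. Those called higher were 5.44%, 7.16% and 3.6%, and those called lower 8.02%, 9.58% and 7.27%, so 1 of 10 is close to the background. At an unadjusted p under 0.05, 7 of the 9 tested member probes other than the dim ERG probe passed at day 3, 4 at day 5 and 6 at day 7, beside 46.5%, 45.5% and 39.5% of all tested probes. The other RUNX1 probes, MEIS1, MYB, KIT and FLT3 gave differences that did not pass the threshold against pre-irradiation.

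**Figure D1:**
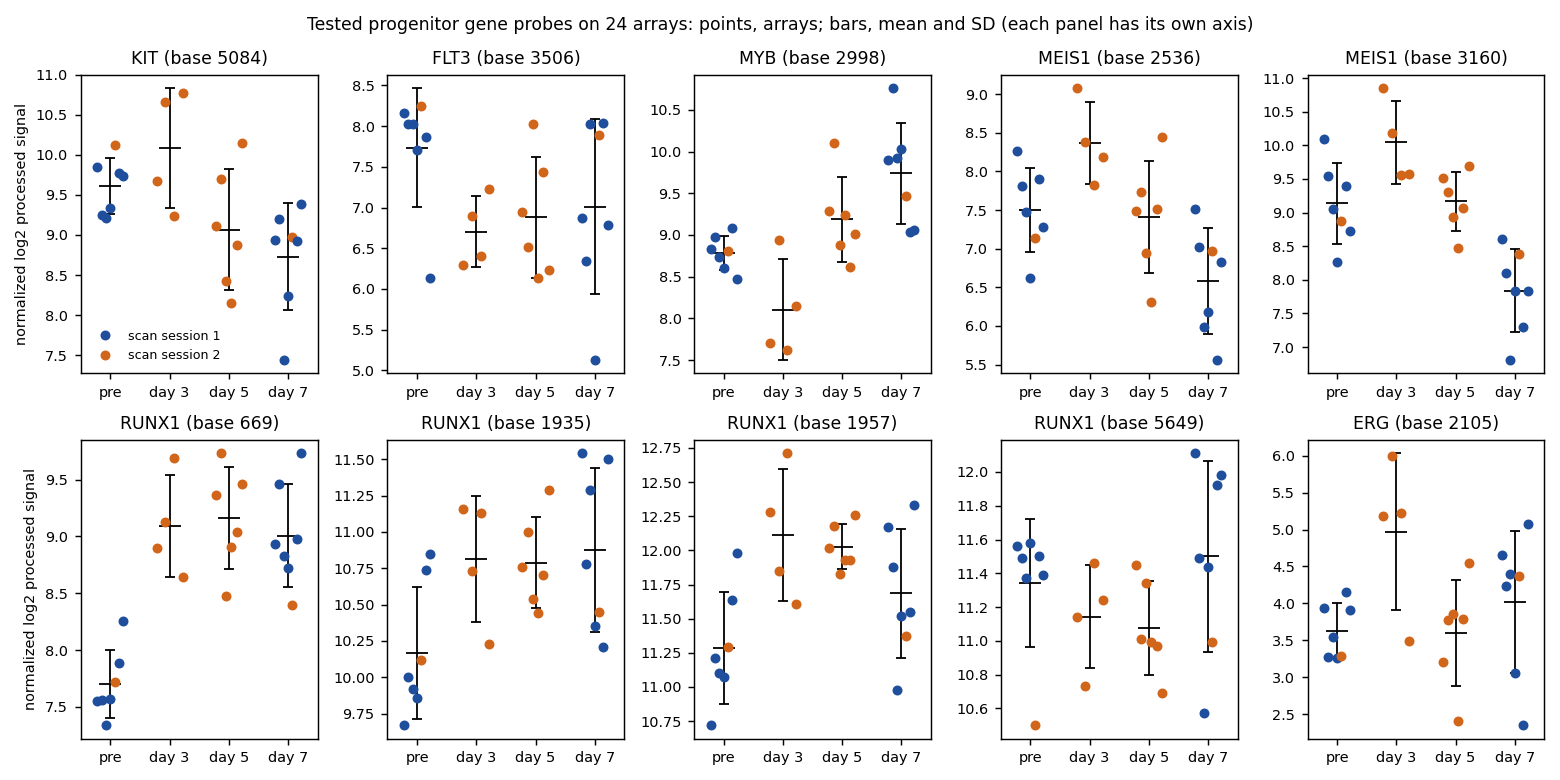
Normalized log2 processed signal of the 10 tested probes on each array, by group. A probe is named by its gene and the base at which it starts in the transcript listed for it. The MEIS1 probes are numbered in different transcripts, as is RUNX1 at base 5649 from the other RUNX1 probes. Their base numbers therefore give no order along the gene. Points are arrays, coloured by scan session, and bars give the mean and SD. The RUNX1 probe at base 669 lies between 7.34 and 8.26 before irradiation and at 8.40 or higher on every later array.

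RUNX1 encodes the DNA-binding subunit of core binding factor, which is needed for the first stem cells and later acts in lymphoid, myeloid and megakaryocyte cells. The probe at base 669 of its transcript read 7.34, 7.57 and 8.26 (lowest, median and highest of 7) before irradiation. At day 3 the 4 animals read 8.90, 9.13, 9.69 and 8.64. At day 5 the lowest, median and highest of 6 were 8.48, 9.20 and 9.73, and at day 7 they were 8.40, 8.93 and 9.73 over 7 animals. Every irradiated array was above every pre-irradiation array, a separation in either direction that 21%, 14.3% and 8.49% of tested probes showed on days 3, 5 and 7.

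The RUNX1 probe was 1.39 higher on the log2 scale at day 3 (SE 0.23, 2.63-fold, adjusted p = 0.00106), 1.47 higher at day 5 (SE 0.21, 2.76-fold, adjusted p = 0.000155) and 1.31 higher at day 7 (SE 0.21, 2.47-fold, adjusted p = 0.000396). It rose in 4 of 4 animals at day 3, 6 of 6 at day 5 and 7 of 7 at day 7, each against its own pre-irradiation array. The 3 irradiated days did not differ among themselves beyond their spread: day 5 minus day 3 was 0.07 (95% confidence interval −0.54 to 0.69) and day 7 minus day 3 was −0.09 (−0.70 to 0.52). The order of the means was therefore pre-irradiation at 7.70, then day 7 at 9.01, day 3 at 9.09 and day 5 at 9.16, with no separation among the last ones.

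With another background correction (normexp) the RUNX1 difference was smaller and was not called on any day, at 0.91 on day 3 (adjusted p = 0.0659), 0.82 on day 5 (adjusted p = 0.033) and 0.99 on day 7 (adjusted p = 0.0203). The day 7 call held within scan session 1, where the RUNX1 difference was 1.41 (SE 0.22, adjusted p = 0.00076). Within session 2, against the single pre-irradiation array of animal 5, the difference was as large at day 3 (1.37, SE 0.47) and day 5 (1.45, SE 0.46) but was not called (adjusted p = 0.23 and 0.136). With the animal as a block the day 3 difference was 1.36 and was no longer called (adjusted p = 0.021), and the call at day 3 was also lost without animal 1 (adjusted p = 0.00616), without animal 2 (0.00747) or without animal 4 (0.0087).

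The other RUNX1 probes gave a smaller rise or none. The probe at base 1935 was higher by 0.65 at day 3 (adjusted p = 0.081), 0.62 at day 5 (adjusted p = 0.0394) and 0.71 at day 7 (adjusted p = 0.058), and the probe at base 1957, which shares 38 bases with it, by 0.83 (adjusted p = 0.0306), 0.74 (adjusted p = 0.00771) and 0.40 (adjusted p = 0.218). Neither was called, and the 2 are not independent readings. With normexp their day 5 differences were 0.18 and 0.33. The probe at base 5649 differed by −0.20 at day 3, −0.26 at day 5 and 0.16 at day 7, with adjusted p of 0.517, 0.306 and 0.669, and by −0.61 at day 5 with normexp. Its pre-irradiation value in animal 5 (10.50) was the lowest of that group, where the others lay at 11.37 or higher, and within session 2 its difference turned to 0.64 at day 3 and 0.58 at day 5.

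**Figure D2:**
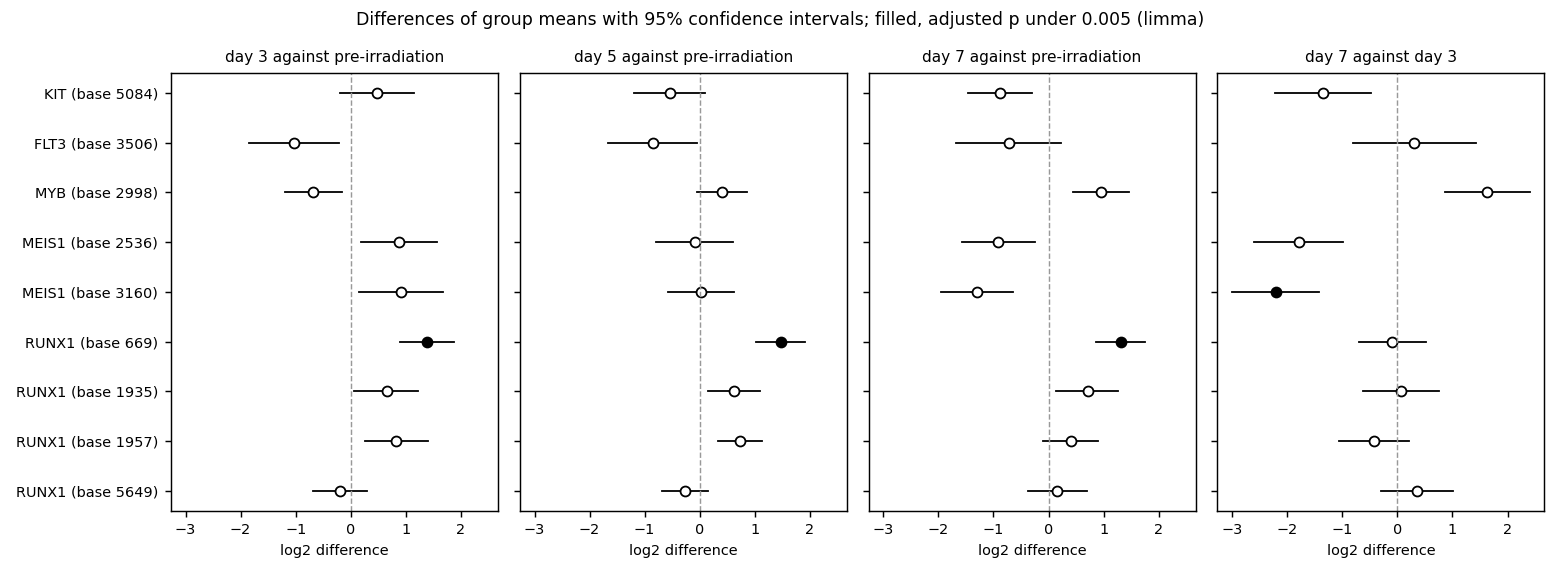
Difference of group means on the log2 scale (horizontal axis) with its 95% confidence interval for the 9 tested probes other than ERG, in 4 comparisons; filled circles passed the threshold. The RUNX1 probe at base 669 is filled in the 3 comparisons with pre-irradiation (1.39, 1.47 and 1.31), and the MEIS1 probe at base 3160 is filled for day 7 against day 3 (−2.21). The ERG probe is left out, since it is not well above background on any pre-irradiation array.

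Marker genes of mature cells moved in the same samples. B cell markers fell on each day, 8 of 8 tested, with a median change of −3.23 at day 3, −3.62 at day 5 and −3.58 at day 7. Their mean level ran from 11.04 to 11.34 before irradiation and from 7.23 to 8.65 on the later arrays. Neutrophil markers had 2 of 8 called higher at day 3, 2 at day 5 and 1 at day 7, with medians of 0.93, 0.89 and 0.50. The list's mean level ran from 13.76 to 14.91 before irradiation and from 14.11 to 15.96 on the later arrays. Their part in the RUNX1 result was not tested.

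MEIS1 had the widest range among the irradiated days. MEIS1 is a homeobox factor that works with HOX proteins in stem cells and is also expressed in megakaryocytes. Its brighter probe, at base 3160 (chr13:66866419-66866478), read 8.26, 9.06 and 10.10 (lowest, median and highest) before irradiation and 10.85, 10.19, 9.56 and 9.57 in the 4 animals at day 3. It read 8.48, 9.19 and 9.69 at day 5 and 6.81, 7.83 and 8.61 at day 7. Of the day 3 arrays 2 of 4 lay above every pre-irradiation array, the day 5 arrays lay within the pre-irradiation range, and 5 of 7 day 7 arrays lay below it.

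Against pre-irradiation, the MEIS1 probe at base 3160 differed by 0.91 at day 3 (SE 0.35, adjusted p = 0.0609), by 0.03 at day 5 (SE 0.28, adjusted p = 0.944) and by −1.30 at day 7 (SE 0.31, adjusted p = 0.00615), none of which passed the threshold. The sign was shared by 4 of 4 animals at day 3 and by 7 of 7 at day 7. From day 3 to day 7 the level fell by 2.21 (SE 0.36, 0.216-fold, adjusted p = 0.00464), with no overlap between the groups, and this was the only one of the 10 member probes called between these days, where 1.28% of all tested probes were called (0.317% higher, 0.962% lower) and 12.1% did not overlap. At an unadjusted p under 0.05, 4 of the 10 member probes passed between these days, beside 32.7% of all.

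That call was at the edge of the threshold. It was lost when any one animal was left out, with the animal as a block (−1.95, adjusted p = 0.00693) and within session 2, where 1 day 7 array was set against the day 3 arrays (−1.67, adjusted p = 0.436). It was also lost with the slide as a block (−1.19, SE 0.69, adjusted p = 0.771), with the session as a block (−1.67, adjusted p = 0.538), with normexp (−1.5, adjusted p = 0.0598) and with no filter on dim probes (−2.21, adjusted p = 0.00888). The direction was the same in each of these fits. The second MEIS1 probe, at base 2536, gave 0.87 at day 3 (adjusted p = 0.0489), −0.09 at day 5 (adjusted p = 0.857) and −0.92 at day 7 (adjusted p = 0.0404; with normexp 0.39 at day 3 and −0.40 at day 7), and −1.79 for day 7 against day 3 (adjusted p = 0.0105; −0.79 with normexp), again without overlap. The Pearson correlation between the 2 probes was 0.94 over 24 arrays, which are the same hybridizations for both.

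**Figure D3:**
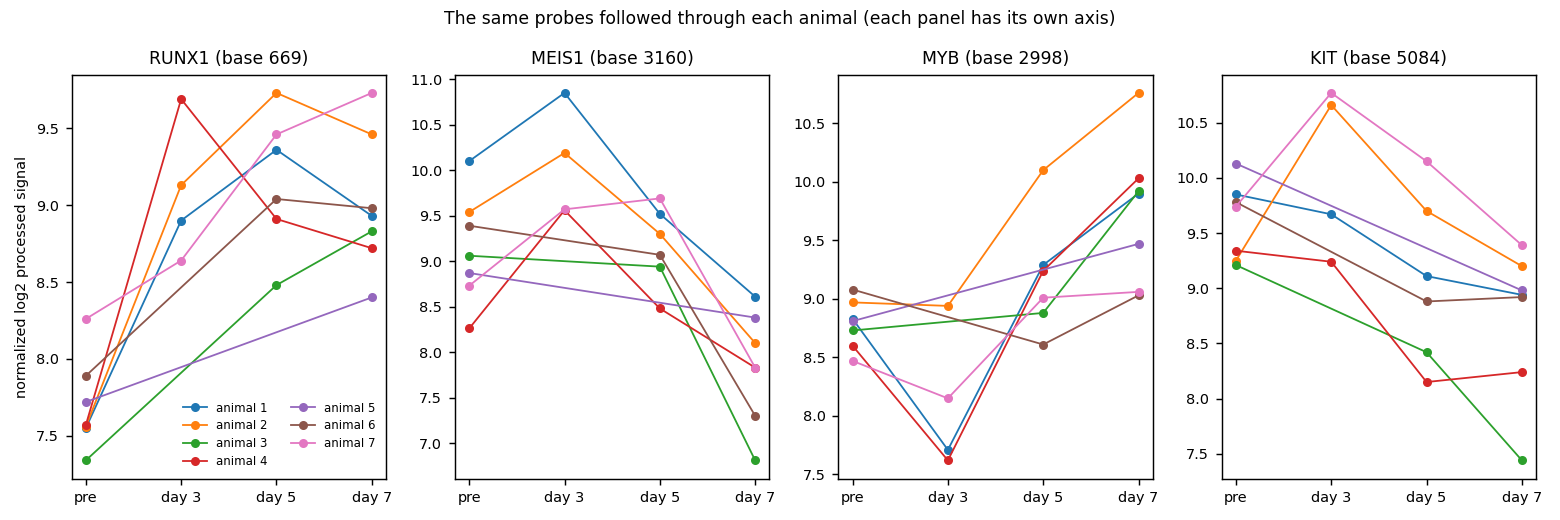
Normalized log2 processed signal (vertical axis) of 4 probes followed through each animal from pre-irradiation to day 7 (horizontal axis); lines join the arrays of 1 animal. RUNX1 at base 669 is higher on every later array than before irradiation in all 7 animals, and MEIS1 at base 3160 is lower at day 7 than before irradiation in all 7.

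Platelet markers also changed in these samples. At day 3, 9 of 9 tested platelet markers rose (median change 2.95), at day 5 the count was 2 with a median of 1.07, and at day 7 it was 0 with a median of 0.15, where the MEIS1 probe at base 3160 had 0.91, 0.03 and −1.30. From day 3 to day 7, 9 of 9 had lower means and 6 of these were called in the unpaired fit. With the animal as a block, on the animals present on both days, 0 of 27102 probes were called between these days. The same limit holds for every other list gene called below from day 3 to day 7. The largest day 3 rises were those of GP1BA (3.83), SELP (3.16) and ITGA2B (3.14), which encode platelet adhesion receptors. The list's mean level ran from 8.22 to 9.64 before irradiation, from 11.35 to 12.40 at day 3, from 9.41 to 10.64 at day 5 and from 8.63 to 10.30 at day 7. No probe was named PF4, GP6 or GP1BB. The part of platelet RNA in the MEIS1 values was not tested.

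The MYB means at days 3 and 7 lay on the opposite side of pre-irradiation from those of MEIS1. MYB encodes a factor of dividing progenitors, and its RNA is also found in activated lymphocytes. Its probe, at base 2998 (chr4:128618917-128618976), read 8.47, 8.81 and 9.08 before irradiation (lowest, median and highest), 7.71, 8.94, 7.62 and 8.15 at day 3, 8.61, 9.12 and 10.10 at day 5, and 9.03, 9.90 and 10.76 at day 7. The day 3 arrays were below the pre-irradiation range in 3 of 4 animals and the day 7 arrays above it in 5 of 7. Relative to pre-irradiation the difference was −0.68 at day 3 (SE 0.24, adjusted p = 0.0461), 0.40 at day 5 (SE 0.21, adjusted p = 0.152) and 0.95 at day 7 (SE 0.24, adjusted p = 0.00873). From day 3 to day 7 it was 1.63 (SE 0.36, 3.09-fold, adjusted p = 0.0128), with no overlap between the groups. None of these passed the threshold in the 2-group fits.

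Some genes of mitosis were called in these samples, and most were not. At day 3, 3 of 13 were lower (CDK1 −1.55, KIF11 −1.25 and CCNB1 −0.71), at day 5 it was 0 of 13 (limma), and at day 7, 4 of 13 were higher, led by MKI67 (2.23), PLK1 (1.70) and TOP2A (1.65). From day 3 to day 7, 1 of 13 was called, CCNA2 (2.18, adjusted p = 0.00499). The mean level of the list ran from 7.96 to 8.42 before irradiation, from 6.81 to 7.75 at day 3, from 7.70 to 11.04 at day 5 and from 8.42 to 11.17 at day 7. The part of cycling cells in the MYB values was not tested.

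The receptors KIT and FLT3 had lower means at day 7 than before irradiation, and neither passed the threshold. The brighter KIT probe, at base 5084 (chr5:74655998-74656057), read 9.21, 9.74 and 10.13 before irradiation, 9.67, 10.66, 9.24 and 10.77 at day 3, 8.15, 9 and 10.15 at day 5, and 7.44, 8.94 and 9.39 at day 7. The difference was 0.47 at day 3 (SE 0.31, adjusted p = 0.247), −0.54 at day 5 (SE 0.30, adjusted p = 0.174) and −0.88 at day 7 (SE 0.27, adjusted p = 0.0268), and KIT was lower at day 7 than before irradiation in 7 of 7 animals. The sign at day 3 was not stable, with −0.13 when the slide was a block, and the day 5 difference was −1.06 with the scan session as a block. From day 3 to day 7 the KIT difference was −1.36 (SE 0.40, adjusted p = 0.0402), and −0.78 with normexp. KIT is also a gene of basophil precursors and mast cells, whose markers had 0 of 6 called at day 3, and 1 of 6 lower at day 5 and at day 7 (FCER1A, −1.97 and −2.50, which is also on the dendritic cell list). From day 3 to day 7, 1 of 6 was called lower, GATA2 (−2.49, adjusted p = 0.00466). The list's mean level ran from 8.51 to 9.80 before irradiation, from 7.66 to 10.01 at day 3 and from 6.24 to 9.19 at day 7. The part of these cells in the KIT values was not tested.

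The FLT3 probe read 6.13, 8.02 and 8.24 before irradiation, 6.29, 6.89, 6.41 and 7.23 at day 3, 6.14, 6.73 and 8.03 at day 5, and 5.13, 6.87 and 8.04 at day 7. Apart from animal 7, at 6.13, the pre-irradiation arrays lay at 7.71 or higher, above all 4 day 3 arrays. The FLT3 difference was −1.03 at day 3 (SE 0.37, adjusted p = 0.0476), −0.85 at day 5 (SE 0.38, adjusted p = 0.0914) and −0.72 at day 7 (SE 0.45, adjusted p = 0.249). Without animal 7 the day 3 difference was −1.47 (SE 0.20) and was called (adjusted p = 0.00169). With normexp background correction the FLT3 difference was smaller, at −0.43 on day 3, −0.23 on day 5 and −0.15 on day 7, and was not called (adjusted p = 0.537, 0.612 and 0.924).

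Dendritic cell markers, from cells that use FLT3, had 3 of 5 called lower at day 3 (median −1.98), 3 at day 5 (median −1.97) and 3 at day 7 (median −1.94). CD1C changed by −2.10, −2.54 and −2.35 on the 3 days and TCF4 by −1.98, −2.18 and −1.94. FCER1A was the other call at days 5 and 7. CLEC9A was the other call at day 3 (−2.51) and differed by −1.07 at day 5 and −0.08 at day 7, neither called, and it rose from day 3 to day 7 (2.44, adjusted p = 0.0037). CLEC10A, with −1.45, −0.06 and −0.75, was not called. The list's mean level ran from 8.60 to 9.31 before irradiation and from 6.48 to 8.15 later, and its part in the FLT3 values was not tested.

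ERG, an ETS factor of stem cells and of endothelium, was close to background. The probe at base 2105 was well above background on 0 of 7 pre-irradiation arrays, 2 of 4 at day 3, 1 of 6 at day 5 and 2 of 7 at day 7, so it entered the test through irradiated arrays alone. It read 3.26, 3.55 and 4.16 before irradiation, none of them well above background, and 5.18, 6, 5.22 and 3.49 at day 3, of which the first and second were. It read 2.41, 3.78 and 4.54 at day 5 and 2.35, 4.37 and 5.07 at day 7 (lowest, median and highest). No difference from pre-irradiation is given, since that group has no array well above background. The second ERG probe, at base 4405, was not well above background on any array. Endothelial markers had 2 of 5 called higher at day 3 (VWF by 3.04 and ESAM by 2.90), both of which platelets also carry. TIE1 on this list was not called, with −1.43, −1.10 and −1.01 on the 3 days. TEK (1.06 at day 5 and 0.79 at day 7) and PECAM1 (0.55 on both) were not called either. The median change of the list was 0.93, 1.06 and 0.55 on the 3 days. The defining endothelial genes CDH5 and KDR were too dim to test. What platelets or endothelial cells contribute to the ERG values was not tested.

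**Figure D4:**
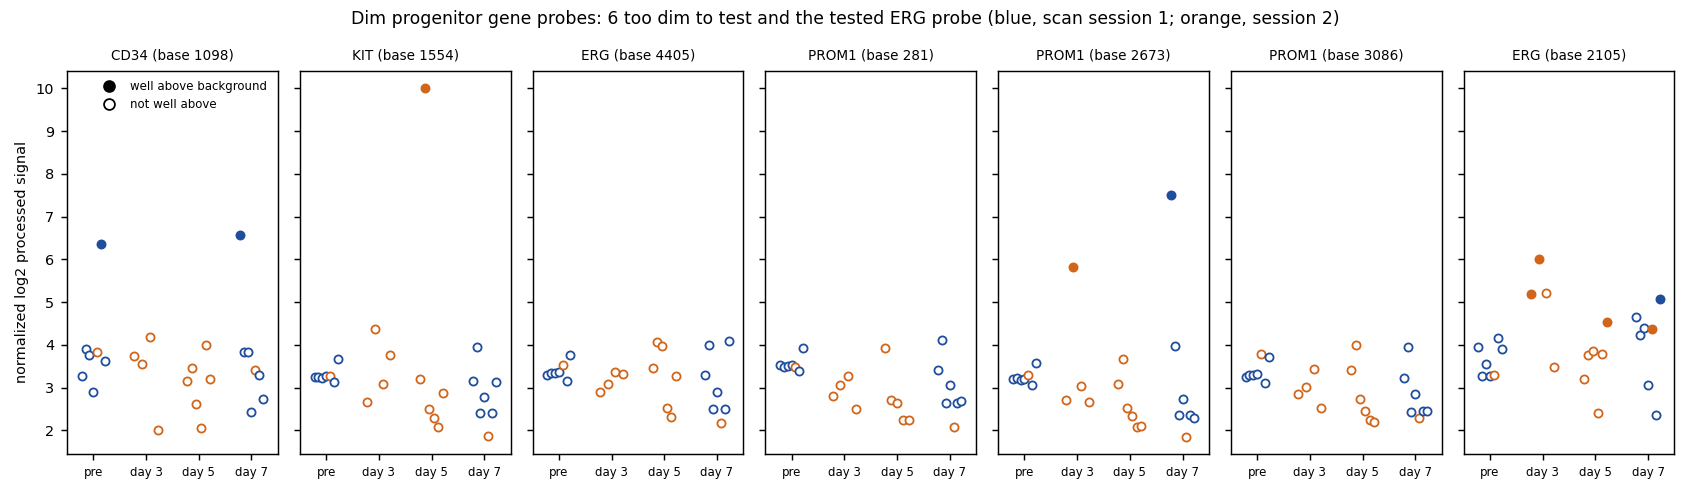
Normalized log2 processed signal (vertical axis) by group for the 6 probes too dim to test and for the tested ERG probe at base 2105. Filled points were well above background; CD34 has 2 such arrays at 6.37 and 6.57, and the KIT probe at base 1554 has 1 at 10.01.

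CD34 and PROM1, the surface markers of stem and progenitor cells, could not be followed in these samples. The CD34 probe was well above background on 1 pre-irradiation array (6.37, animal 6) and 1 day 7 array (6.57, animal 1), and lay between 2.01 and 4.19 on the rest. Of the 3 PROM1 probes, the one at base 2673 was well above background on 2 arrays (5.81 at day 3 in animal 2, and 7.5 at day 7 in animal 1) and the one at base 3086 on none. The one at base 281 was well above background on 1 day 5 array, where its spot was marked as an outlier and left out. The KIT probe at base 1554 was well above background on a single day 5 array, at 10.01 in animal 2, while the brighter KIT probe read 9.70 there. These values set no order between groups, and on 5 arrays for CD34 and 19 to 23 arrays for the other dim probes the software had put a substitute value for a spot at background. No dim probe was well above background on all arrays of any group.

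HOXA9 and SPINK2 were reached only outside the rule, through accessions. A probe listed under a transcript accession and matched to SPINK2 in RefSeq was bright on all 24 arrays and read 11.20, 11.87 and 12.63 before irradiation, 10.55, 10.52, 10.42 and 11.51 at day 3, 9.91, 11.03 and 11.83 at day 5, and 10.60, 11.53 and 12.73 at day 7. The difference was −1.16 at day 3 (SE 0.28, adjusted p = 0.00771), −0.93 at day 5 (SE 0.28, adjusted p = 0.0208) and −0.28 at day 7 (SE 0.29, adjusted p = 0.506). It was lower in 4 of 4 animals at day 3, 5 of 6 at day 5 and 4 of 7 at day 7, and no difference passed the threshold.

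A probe named HOXA10 in the scanner output lists an accession that RefSeq assigns to HOXA9, so the neighbouring homeobox genes cannot be told apart there. It was well above background on 11 of 24 arrays, none of them pre-irradiation, so no difference is given. Its pre-irradiation levels lay between 3.27 and 5.35, those of day 3 between 4.08 and 6.11, those of day 5 between 3.75 and 6.12, and those of day 7 between 4.10 and 6.10. A second such probe was too dim, with 1 array well above background.

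Between neighbouring irradiated days the members showed no call, with 0 of 10 probes for day 5 against day 3 and 0 of 10 for day 7 against day 5 (limma). In the whole array 0.0184% and 0.00368% of tested probes were called there, and 3.08% and 2.3% did not overlap between groups. At an unadjusted p under 0.05, 10% and 20.8% of all probes passed. Among the 9 members other than the dim ERG probe these were KIT, MYB and both MEIS1 probes for day 5 against day 3, and both MEIS1 probes for day 7 against day 5.

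Other genes of the stem and progenitor pathways were mostly not called either. A gene stood by its brightest tested probe here, and of all named genes 13.6%, 15.5% and 10% were called on days 3, 5 and 7, with 5.79%, 6.14% and 2.65% called higher and 7.77%, 9.35% and 7.35% called lower. Among the irradiated days it was 0.0344% for day 5 against day 3, 1.61% for day 7 against day 3 (0.37% higher, 1.24% lower) and 0.00861% for day 7 against day 5. Among growth factors and niche ligands, 6 of 11 were bright enough, and 0, 1 and 2 of them were called on days 3, 5 and 7. ANGPT1, the TIE2 ligand, changed by −1.76 at day 5 and −2.24 at day 7, and CSF2, which encodes GM-CSF, by −2.02 at day 7. KITLG, THPO, IL3, IL6 and IL11 were too dim.

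Among 20 tested surface proteins and receptors of progenitors, 4 were called at day 3, 4 at day 5 and 0 at day 7, with medians of 0.18, 0.34 and 0.18 against −0.01, −0.01 and −0.02 over all named genes. ESAM (2.90) and EGFL7 (1.94) rose at day 3, and both were lower again at day 7 than at day 3 (−3.12 and −2.20). IL7R, the interleukin 7 receptor of lymphocytes, changed by −1.97 at day 3 and −1.25 at day 5. CSF3R, the G-CSF receptor, rose by 1.72 and 1.82, and AVP fell by 2.02 at day 5.

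Progenitor transcription factors had 6 of 28 tested genes called at day 3, 2 higher and 4 lower. At day 5 it was 5 of 28, 1 higher and 4 lower, and at day 7 it was 8 of 28, 1 higher and 7 lower. The medians were 0.26, 0.07 and −0.15. Among the falls were those of KLF1, the master factor of red cell genes (−5.28, −8.07 and −5.53), and BCL11A, a factor of B cells and dendritic cells and of globin switching (−3, −3.41 and −3.51). TAL1 changed by −2.16 at day 5 and −2.04 at day 7. GFI1B, a factor of megakaryocytes and red cells, rose by 1.72 at day 3 and fell by 2.71 from day 3 to day 7.

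Most erythroid markers fell in the same samples, with 8, 9 and 9 of 11 called lower on the 3 days and medians of −3.18, −3.88 and −3.52. RHAG was not called, with 2.17 at day 3 (adjusted p = 0.00556), 0.30 at day 5 and −0.50 at day 7. The list's mean level ran from 10.82 to 12.62 before irradiation and from 6.70 to 10.34 later. Early committed progenitor genes had 2, 2 and 3 of 10 called: CTSG changed by −2.52, −2.88 and −2.57, ELANE by −2.27 at day 5 and −2.39 at day 7, STMN1 by −1.06 at day 3 and CDK6 by 1.18 at day 7. CTSG and ELANE encode granule proteases of promyelocytes. MPO and AZU1, which encode other granule proteins of these cells, were not called on any day, with 1.36, 0.49 and 0.11 for MPO and 1.04, 1 and 0.64 for AZU1. T cell markers had 3, 1 and 0 of 9 called, all lower, and monocyte markers 2, 2 and 1 of 7, all higher. What these cells contribute to the progenitor lists was not tested.

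Some genes had patterns much like those of the members. For each member gene the 3 symbols with the highest Pearson correlation to its brightest probe over the 24 arrays were taken out of 10823 genes. The arrays share slides, animals and groups, so these values are descriptions. They were PDLIM1 (0.864), MGLL (0.823) and RAB5B (0.82) for KIT, CD1B (0.845), SERPINA5 (0.837) and MEF2C (0.799) for FLT3, and TJP1 (0.82), CFAP92 (0.813) and PIAS2 (0.808) for MYB. For MEIS1 they were NPTN (0.871), GFI1B (0.87) and GNAZ (0.864). For RUNX1, by the probe at base 1957, they were MBD6 (0.872), ARHGAP26 (0.871) and MYO1F (0.871), and for ERG, not well above background on most arrays, they were ANAPC5 (0.729), TMEM104 (0.721) and PTPN18 (0.721).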

How the data were processed

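The 24 one-colour arrays of rhesus blood were grouped by their labels. Per the labels, the authors used Agilent Feature Extraction 10.7; the scanner header names version 12.0.2.2, array design Agilent-026806 and build rheMac2. The deposited scanner output holds an intensity, the background-subtracted processed signal. The deposited series matrix holds log2 values of that intensity, normalized per array by the authors, for 18497 probes (11 of 16 member probes), and was an alternative.

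The members, gene lists and tests were chosen with earlier results of these data known. On the log2 scale, spots with a non-uniformity or population-outlier flag were dropped and saturated ones kept. Arrays were aligned to the one with the middle median by subtracting their median difference from it (−2.03 to 0.87). Probes well above background on at least 4 arrays were compared 2 groups at a time, unpaired, with limma 3.58.1 (R 4.3.3), two-sided, with Benjamini-Hochberg adjustment over all tested probes. The script was tested on simulated data. Precision is limited by how many arrays there are. The median change over all tested probes was 0.02 or less in each comparison.

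Arrays with the same number came from the same animal, and their deviations from group means correlated in every pair (lowest 0.132 over the 6 comparisons); no arrays were duplicates (highest correlation 0.978). Named genes were all member probes, the called list genes with the 3 largest changes on a day, and the 3 genes most like each member. Of all probes, 25161 were named by the scanner output and 682 by accession match to RefSeq (names only). Alternatives covered scaling, background, filter, blocks, sessions, a joint fit, outlier spots and leaving out each animal. Probe sequences came from the scanner output.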

Additional observations from a re-analysis of the deposited data

Results flagged for a closer look

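Over the 16 member probes and 4 groups, 64 sets of arrays were examined for a single array standing apart from its group, and chance alone marks about 1 set in 20. Standing apart were 10 readings, 2 of them on tested probes. Several fell on the same array: pre-irradiation in animal 7 stood apart for KIT, FLT3 and PROM1 probes, and day 5 in animal 2 for KIT and PROM1 probes. FLT3 in pre-irradiation blood read 6.13 in animal 7, against 7.71 for the next lowest animal. RUNX1 at base 5649 read 10.50 in animal 5 before irradiation, against 11.37 for the next.

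The other 8 were on probes too dim to test. The KIT probe at base 1554 read 10.01 at day 5 in animal 2, with the next array at 3.19, and 3.66 before irradiation in animal 7, with the next at 3.27. CD34 read 6.37 before irradiation in animal 6 and 6.57 at day 7 in animal 1, with the next arrays at 3.91 and 3.84. PROM1 at base 2673 read 5.81 at day 3 in animal 2 and 7.5 at day 7 in animal 1, with the next at 3.04 and 3.98. PROM1 at base 281 read 3.92 before irradiation in animal 7 and 3.92 at day 5 in animal 2, neither well above background. The day 7 array of animal 1 was the highest for both CD34 and the PROM1 probe at base 2673.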

How the results depend on the processing

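Of 756 values of single member probes under the alternatives, 25 lost a call, 7 gained one and 0 turned a call's direction. Another 10, not called, changed sign and moved by 1 SD or more. The other 714 kept their call status. Among these a change of sign stayed under 1 SD, while values that kept their sign could shift by any amount. The RUNX1 probe at base 669 stayed between 0.91 and 1.64 at day 3, 0.82 and 1.54 at day 5, and 0.99 and 1.41 at day 7. Against 1 called member probe at day 3, the count was 0 with normexp background correction, the replicate block, slide or scan session as a block and within session 2, and ran from 0 to 3 with one animal left out (3 without animal 7, one of them the ERG probe, at background on all pre-irradiation arrays). Against 1 at day 5, it was 2 with quantile normalization, 0 with normexp, session as a block and within session 2, and 1 to 2 with one animal left out; against 1 at day 7, it was 0 with normexp, 2 with all 4 groups in 1 fit and 1 to 1 with one animal left out. For day 7 against day 3, against 1, it was 0 with normexp, no filter on dim probes, the replicate block, slide or session as a block and within session 2, 3 with all groups in 1 fit (both MEIS1 probes and MYB), and 0 to 0 with one animal left out. For day 5 against day 3 and day 7 against day 5 it was 0 under every alternative. The replicate block, which keeps the animal, changed no other member call: RUNX1 stayed called at day 5 (1.47) and day 7 (1.31). For all probes, calls at day 3 were 3653, against 0 with slide as a block or within session 2, 37 with session as a block, 139 with normexp, 760 with the replicate block and 863 to 3490 with one animal left out. At day 5 they were 4543, against 177 within session 2, 239 with normexp, 383 with session as a block and 2713 to 4293 with one left out; at day 7 they were 2951, against 315 with normexp and 1656 to 2576 with one left out. For day 7 against day 3 they were 347, against 2177 with all groups in 1 fit, 78 with no filter, 6 with normexp, 0 with any block and 0 to 248 with one left out; for day 5 against day 3 they were 5, against 0 to 8, and for day 7 against day 5 they were 1, against 0 to 2. Fits with session or slide as a block and within session 2 rest on 1 pre-irradiation array, or 1 day 7 array, for part of the contrast. For day 5 against pre-irradiation and day 7 against day 5 the slide was a random block (correlation 0.003 and −0.02). The cause of these changes was not tested. Signal over background limits CD34, PROM1, ERG and the KIT probe at base 1554.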
